A study of Mus musculus with 8 samples.

Results

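Enterocytes, the absorptive cells of the small intestine, carry a brush border of densely packed microvilli on the side that faces the gut lumen. Disaccharidases, peptidases and alkaline phosphatase are anchored there and finish digestion, transporters in the same membrane take up sugars, amino acids and bile acids, and a scaffold of actin bundlers and protocadherins holds the microvilli in order. Absorbed fatty acids and monoacylglycerol are bound by small carrier proteins, rebuilt into triglyceride and packed onto apolipoprotein B as chylomicrons. Paneth cells, the secretory cells at the crypt base, are not known for this programme. The 48 genes described here were chosen by symbol as the enterocyte brush border and lipid absorption genes, and all 48 were found among the 55414 genes of the count table.

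The 8 RNA-seq libraries came from Paneth cells sorted by FACS from mouse small intestine. Of these, 4 came from mice with the genotype DT TG, whose Paneth cells express diphtheria toxin, a blocker of protein synthesis (TG), and 4 from wild type mice (WT). The study describes its sorts as made from C57BL/6J mice. The study states that its samples came from individual mice and that its datasets hold both sexes. The sources used here give no age and no promoter of the toxin transgene, and the labels tie no library to an animal or a sex, so p-values measure the spread between these libraries. Total counts were 13107397 to 16218434 per library. Counts from Y-linked genes were 0 in replicates 1 and 2 of both groups and 897 to 1564 in replicates 3 and 4, so each group held 2 libraries of either kind.

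The sorted cells carried the markers of Paneth cells, although 3 of 10 were lower in TG. Of all tested genes at a mean of 100 CPM (counts scaled to library size) or more, 22.6% were lower. All these markers but Mptx1 lay at that level. Lyz1, which encodes lysozyme, stood at 155905 to 215272 CPM in TG and at 143755 to 189206 CPM in WT. Defa24, an alpha-defensin, was at 108073 to 131030 CPM in TG and 106271 to 170792 CPM in WT. Mptx2 was at 5246 to 7570 CPM in TG and 9881 to 20028 CPM in WT (log2 fold change -1.35 ± 0.20, adjusted p = 0.00116), and Mmp7 and Ang4 were lower with log2 fold changes of -0.59 and -0.57. Against that, the 48 genes together took 0.221% to 0.275% of the counts of a library. CPM values are counts divided by the library total and its TMM factor, in the usual unit, and compare 1 gene between libraries. Transcript levels of different genes are ranked only per kilobase of exon length, while bands and sums of CPM describe how many counts genes had.

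Of the 48 genes, 46 passed the filter on low counts and were tested with edgeR's quasi-likelihood test, with Benjamini-Hochberg adjustment over all 11929 genes tested and a threshold of 0.05. In TG, 22 were higher, 2 were lower and 22 were not called. Among all tested genes 8.26% were called higher and 9.65% lower, against 47.8% of the tested members called higher. The median log2 fold change of TG over WT was 1.02 over the 46 members and 0.01 over all tested genes. With a log2 fold change of at least 1 required as well, 16 members were higher, beside 2.05% of all tested genes, and a further 8 members had a log2 fold change of at least 1 without a call. Every TG library stood above every WT library for 21 of the 46 tested members, a pattern that 10% of all tested genes showed, and for Slc10a2, which was not tested. The 21 include Treh, Slc15a1 and Creb3l3, which passed the filter through their TG libraries alone. Neither the 21 nor the 10% was split by the WT level, so they are given as values, not as support.

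A gene that is low in WT can pass the filter through its TG libraries alone, so the counts of calls were split by the WT level. Of the 46 tested members, 32 reached the filter's 0.691 CPM in all 4 WT libraries. Among these, 13 were higher and 2 lower in TG, with a median log2 fold change of 0.58. Of the 11078 tested genes that met the same condition, 7.70% were higher and 10.4% lower. The other 14 fell below that level in at least 1 WT library, and 9 of them were higher, beside 15.5% of the 851 tested genes of that kind. For Treh, Slc15a1 and Creb3l3 no WT library reached it, so these 3 were tested because their TG libraries did, and their calls are given as values, not as support.

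**Figure D1:**
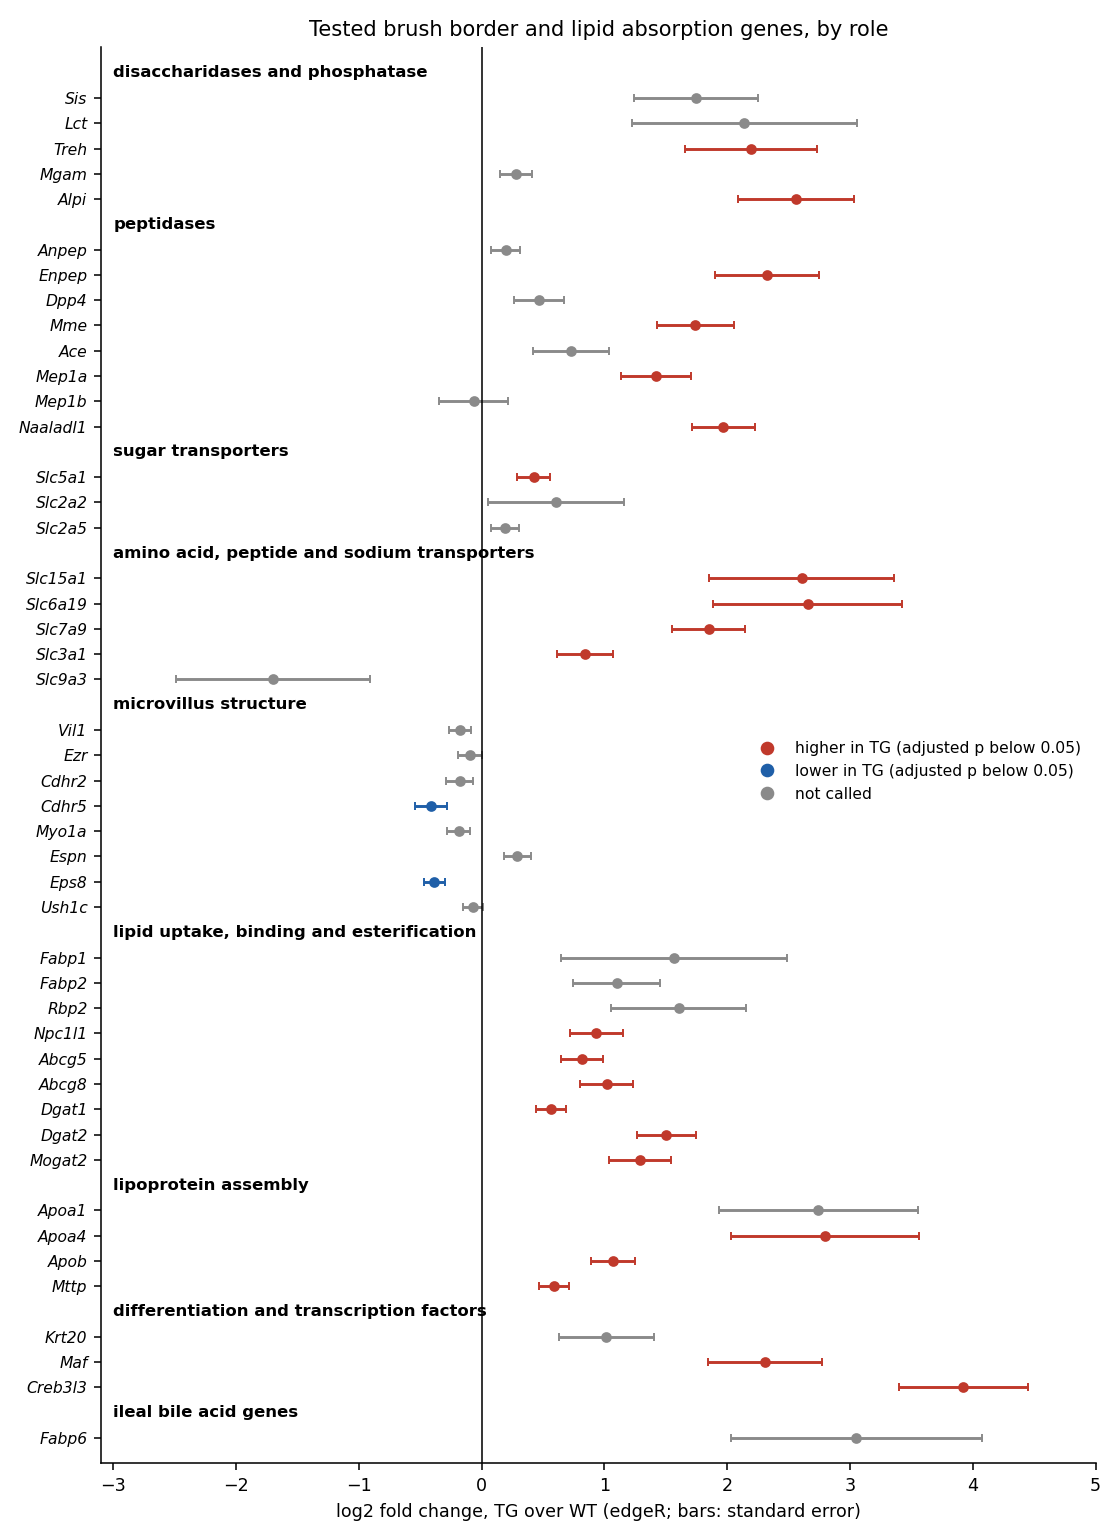
Log2 fold change of TG over WT (x axis) for each of the 46 tested genes, grouped by role, with bars for the standard error from edgeR. Red points were called higher in TG, blue points lower and grey points were not called; the 8 microvillus structure genes sit near 0 while 37 of the 46 points lie to the right of it.

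The promoters offer a feature that the choice of genes did not use. Short motifs bound by factors of the intestinal epithelium were searched on both strands in the 250 bases before the annotated start of each gene (GRCm39, GENCODE version M39), and in the same windows of 21770 protein-coding genes. The HNF4 motif CAAAGTC was in 12.5% of the members' windows and 3.62% of all windows. For the GATA motif AGATAA the shares were 25.0% and 9.60%, for the CDX motif CATAAA 16.7% and 10.01%, and for the TATA box TATAAA 22.9% and 11.9%. CATAAA and TATAAA differ by 1 letter and can occur at the same place relative to a start. Members called higher held the HNF4 motif in 4 of 22 windows and the others in 2 of 26, while CATAAA was in 2 of 22 and 6 of 26. The GATA motif was in 7 of 22 and 5 of 26, and TATAAA in 6 of 22 and 5 of 26.

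In the last 100 bases before the start, 4 members held CAAAGTC, namely Treh, Alpi and Slc3a1, which were higher in TG, and Cdhr2, which was not called. They are shown because HNF4 is a known regulator of brush border genes and because these windows hold no annotated exon. Letters in capitals mark CAAAGTC or its reverse complement GACTTTG and, in the same windows, TATAAA or its reverse complement TTTATA (the latter alone in Alpi, both overlapping in Slc3a1). Treh lies at chr9:44584430-44584529, plus strand, Alpi at chr1:87029329-87029428, minus strand, Slc3a1 at chr17:85335704-85335803, plus strand, and Cdhr2 at chr13:54849171-54849270, plus strand. Each sequence runs 5′ to 3′ and ends at the base before the start.
Treh: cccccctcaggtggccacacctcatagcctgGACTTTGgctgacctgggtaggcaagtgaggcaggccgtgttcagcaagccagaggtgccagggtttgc
Alpi: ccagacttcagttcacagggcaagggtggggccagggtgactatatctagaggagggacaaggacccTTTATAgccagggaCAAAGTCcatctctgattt
Slc3a1: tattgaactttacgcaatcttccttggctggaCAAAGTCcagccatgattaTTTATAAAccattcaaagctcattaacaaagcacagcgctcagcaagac
Cdhr2: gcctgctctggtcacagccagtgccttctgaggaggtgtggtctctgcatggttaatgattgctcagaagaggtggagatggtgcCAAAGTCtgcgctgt

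A second set of 5 windows held CATAAA on the gene's own strand between 40 and 20 bases before the start, where a TATA box usually sits. That was 10.4% of the 48 members and 0.648% of all 21770 windows, a count made after the positions had been seen. TATAAA was at this place in 1 member, Apob, and in 1.94% of all windows. Their calls differed, since Naaladl1 was higher in TG, Cdhr5 lower, and Lct, Fabp1 and Fabp6 were not called. Capitals mark CATAAA and, in Lct, AGATAA. Naaladl1 is at chr19:6155712-6155811, plus strand, Cdhr5 at chr7:140856705-140856804, minus strand, Lct at chr1:128256056-128256155, minus strand, Fabp1 at chr6:71176709-71176808, plus strand, and Fabp6 at chr11:43492470-43492569, minus strand.
Naaladl1: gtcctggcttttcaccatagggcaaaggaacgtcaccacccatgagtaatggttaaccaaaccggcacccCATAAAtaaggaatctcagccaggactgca
Cdhr5: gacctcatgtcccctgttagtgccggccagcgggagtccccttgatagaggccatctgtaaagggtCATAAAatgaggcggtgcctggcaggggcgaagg
Lct: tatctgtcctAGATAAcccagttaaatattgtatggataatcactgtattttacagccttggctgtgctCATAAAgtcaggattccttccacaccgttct
Fabp1: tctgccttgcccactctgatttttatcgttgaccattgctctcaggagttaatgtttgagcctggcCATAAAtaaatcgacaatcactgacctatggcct
Fabp6: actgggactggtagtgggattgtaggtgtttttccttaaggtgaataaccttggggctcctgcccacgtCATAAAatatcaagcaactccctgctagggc

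Of the 4 disaccharidases and the phosphatase, 2 genes were higher in TG, Alpi and Treh. Alpi, the intestinal alkaline phosphatase, stood at 0.319, 0.487, 0.602 and 1.78 CPM in WT replicates 1 to 4 and at 3.31, 2.60, 6.37 and 6.68 CPM in TG replicates 1 to 4. The groups did not overlap, and the log2 fold change was 2.56 ± 0.47 (SE, adjusted p = 0.00462). Treh, the trehalase, was at 0.0798 to 0.743 CPM in WT and 0.750 to 2.48 CPM in TG, a log2 fold change of 2.19 ± 0.54 (adjusted p = 0.0141), and it was tested through its TG libraries alone. Sis, which encodes sucrase-isomaltase, had no overlap between groups either, at 2.16 to 9.14 CPM in WT and 9.63 to 22.7 CPM in TG, with a log2 fold change of 1.75 ± 0.50. Its adjusted p of 0.0535 missed the threshold, and the gene was called with a covariate for Y-linked counts (log2 fold change 1.84, adjusted p = 0.00101), by DESeq2 (adjusted p = 0.0147) and by limma voom (adjusted p = 0.0143). It was not called without the filter (adjusted p = 0.114), with only the libraries with Y-linked counts (0.0623) or in 7 of 8 edgeR fits that left out 1 library (0.0746 to 0.121). Lactase, Lct, ranged from 0 to 3.35 CPM in WT and from 2.32 to 8.51 CPM in TG (log2 fold change 2.14, adjusted p = 0.155). It was called with the covariate for Y-linked counts (2.29, adjusted p = 0.0159) and by neither DESeq2 nor limma voom, and in 1 of 8 fits that left out 1 library. Mgam, maltase-glucoamylase, had by far the highest level per kilobase of this group. Its values were 118, 137, 167 and 156 CPM in WT and 173, 191, 202 and 136 CPM in TG, so that the highest WT library lay above the lowest TG library, and it was not called (log2 fold change 0.28 ± 0.13, adjusted p = 0.149).

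Among 8 peptidases, 4 were higher in TG and none was lower. Naaladl1, a peptidase of the ileal brush border, was at 8.14, 8.35, 10.6 and 10.2 CPM in WT and at 22.1, 33.5, 36.7 and 54.5 CPM in TG. Even the lowest TG library held more than the highest WT library, at a log2 fold change of 1.97 ± 0.26 (adjusted p = 0.00195). Enpep, glutamyl aminopeptidase, stood at 1.44, 1.60, 1.40 and 3.42 CPM in WT and at 4.75, 7.73, 11.1 and 16.1 CPM in TG (log2 fold change 2.33 ± 0.42, adjusted p = 0.00676). Mme, neprilysin, rose by 1.74 ± 0.31 on the log2 scale and Mep1a, the alpha subunit of meprin, by 1.42 ± 0.29. Its partner Mep1b, the beta subunit, was not called, at 12.3 to 27.5 CPM in WT and 13 to 26.5 CPM in TG (log2 fold change -0.06, adjusted p = 0.901).

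Anpep, aminopeptidase N, was the most abundant peptidase per kilobase, at 75.9 CPM per kilobase on average in WT and 86.9 in TG. The libraries held 362, 319, 255 and 324 CPM in WT and 373, 353, 310 and 405 CPM in TG, which overlap, and the log2 fold change was 0.19 ± 0.12 (adjusted p = 0.256). Dpp4, dipeptidyl peptidase 4 (log2 fold change 0.47), and Ace, angiotensin-converting enzyme (0.73), were not called either.

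Of 3 sugar transporters, 1 was higher in TG. Slc5a1, the sodium-glucose cotransporter, was at 21.6, 20.3, 27.1 and 26.5 CPM in WT and 30.1, 34.1, 38.9 and 24.8 CPM in TG. TG replicate 4 lay within the WT range, and the call was narrow (log2 fold change 0.42 ± 0.14, adjusted p = 0.0465). The fructose carrier Slc2a5 (0.19, adjusted p = 0.245) and the basolateral glucose carrier Slc2a2 (0.60, adjusted p = 0.475) were not called.

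Of the carriers of amino acids and peptides, Slc7a9, Slc3a1, Slc6a19 and Slc15a1 were called higher in TG. Slc7a9, the light chain of the cystine and dibasic amino acid exchanger, was at 0.479, 1.04, 1.14 and 1.26 CPM in WT and at 2.81, 3.58, 3.16 and 4.86 CPM in TG, with no overlap (log2 fold change 1.85 ± 0.30, adjusted p = 0.00157). Its heavy chain Slc3a1 rose less, by 0.84 ± 0.23 (adjusted p = 0.0211), so that the ratio of Slc7a9 to Slc3a1 in CPM per kilobase was 0.499 to 1.20 in the WT libraries and 1.64 to 2.02 in the TG libraries. Slc6a19, the main neutral amino acid transporter, stood at 0, 0.209, 0.535 and 0.892 CPM in WT and at 0.562, 2.67, 2.37 and 5.16 CPM in TG. TG replicate 1 overlapped WT here, and the log2 fold change was 2.65 ± 0.77 (adjusted p = 0.0415). The peptide transporter Slc15a1 went from 0 to 0.595 CPM in WT to 0.687 to 4.56 CPM in TG (log2 fold change 2.61 ± 0.76, adjusted p = 0.0374), and it passed the filter through its TG libraries alone. The sodium-proton exchanger Slc9a3, grouped with these carriers, had the lowest log2 fold change of all members, at -1.70 ± 0.79. It was at 1.93 to 8.70 CPM in WT and 0.228 to 2.99 CPM in TG, with overlap, and was not called (adjusted p = 0.181).

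**Figure D2:**
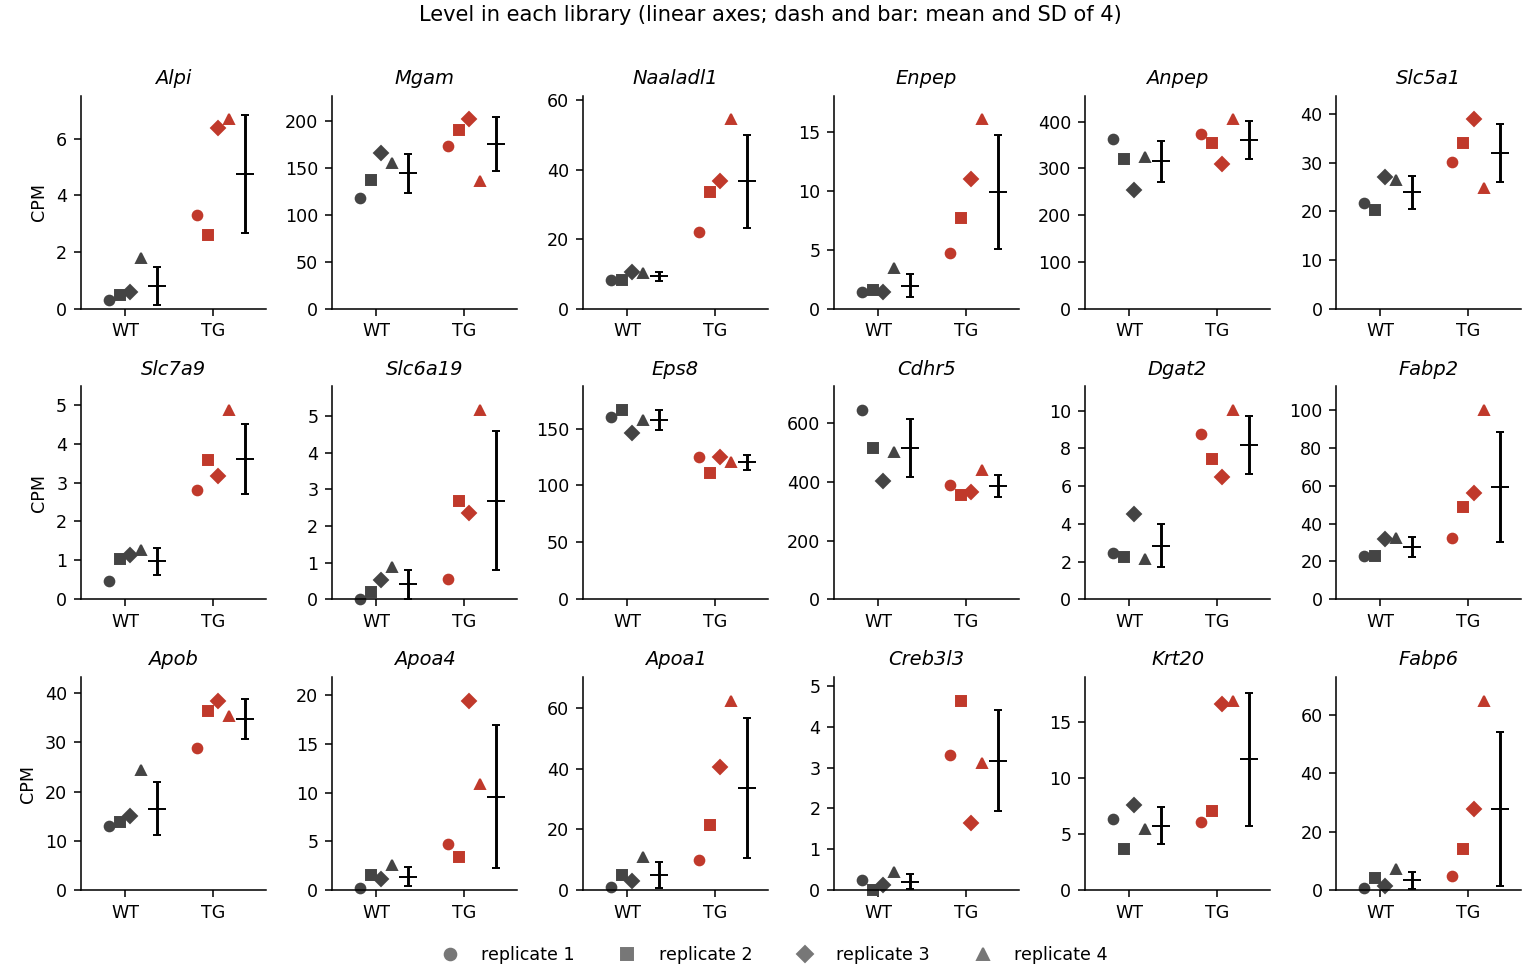
CPM (y axes, linear and starting at 0) in each WT and TG library for the 18 members given library by library, with a symbol for each replicate number and a dash and bar for the mean and SD of 4 libraries. Groups are apart for Alpi, Naaladl1, Enpep, Slc7a9, Eps8, Dgat2, Apob, Apoa4 and Creb3l3, and overlap for Mgam, Anpep, Slc5a1, Slc6a19, Cdhr5, Fabp2, Apoa1, Krt20 and Fabp6.

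Of the 8 structural genes of the microvillus, 0 were higher in TG, 2 were lower, and the median log2 fold change was -0.18. Of these genes 6 had a mean of 100 CPM or more, and over all 882 tested genes at that level the median was -0.16, with 22.6% called lower, so the group's median and its lower calls were near those of other genes of its level. Eps8, an actin capping and bundling protein of the microvillus tip, was at 160, 166, 146 and 158 CPM in WT and at 125, 111, 125 and 121 CPM in TG, the only member whose TG libraries all lay below WT (log2 fold change -0.39 ± 0.08, adjusted p = 0.0068). Cdhr5, a protocadherin that links microvillus tips, was at 646, 517, 402 and 502 CPM in WT and at 389, 357, 366 and 440 CPM in TG. WT replicate 3 lay below TG replicate 4, and the log2 fold change was -0.41 ± 0.13 (adjusted p = 0.0393). When libraries were scaled by total counts alone, neither was called.

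The other 6 structural genes were not called, namely villin (Vil1, log2 fold change -0.18), ezrin (Ezr, -0.10), the protocadherin Cdhr2 (-0.18), brush border myosin (Myo1a, -0.19), the scaffold protein Ush1c (-0.07) and espin (Espn, 0.29). As a group these genes had the highest levels of the 48. They made up 70.7% ± 2.95 of the members' summed CPM per kilobase in WT (SD, n = 4) and 52.8% ± 6.19 in TG (SD, n = 4), and the groups did not overlap (67.3% to 74.0% in WT, 45.4% to 60.0% in TG). Their own summed level did overlap, at 362 to 481 CPM per kilobase in WT and 323 to 383 in TG, so the share also reflects the higher sums of the other roles.

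Genes of lipid uptake, binding and esterification had positive log2 fold changes in 9 of 9 cases, and 6 were called higher. Dgat2, which makes triglyceride from diacylglycerol, was at 2.48, 2.23, 4.55 and 2.16 CPM in WT and at 8.75, 7.45, 6.48 and 10.02 CPM in TG. All TG values lay above all WT values (log2 fold change 1.50 ± 0.24, adjusted p = 0.0015). Its isoenzyme Dgat1 rose by 0.56 ± 0.12 and Mogat2, the monoacylglycerol acyltransferase of the same pathway, by 1.29 ± 0.25. Npc1l1, the sterol importer, rose by 0.93 ± 0.22, and Abcg5 and Abcg8, whose products pair to export sterols, by 0.82 ± 0.17 and 1.02 ± 0.21. Abcg5 and Abcg8 are neighbours on chromosome 17, point in opposite directions and start 12 bases apart, with gene bodies that overlap in the annotation, so that reads of one may have been counted for the other.

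The 3 carrier proteins of this group were less uniform. Fabp2, the intestinal fatty acid-binding protein and the most abundant lipid gene per kilobase, was at 23.1, 22.8, 32.1 and 32.3 CPM in WT and 32.2, 49.0, 56.0 and 99.9 CPM in TG. TG replicate 1 lay just below the highest WT library, and the adjusted p was 0.0774 (log2 fold change 1.10 ± 0.35). Rbp2, the cellular retinol-binding protein of enterocytes, had a log2 fold change of 1.60 ± 0.55 (adjusted p = 0.0689), and Fabp1, the liver-type fatty acid-binding protein, of 1.56 ± 0.92 (adjusted p = 0.281). Fabp1 was at 0 to 3.42 CPM in WT and 1.05 to 6.37 CPM in TG.

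Of the lipoprotein genes, Apob, Mttp and Apoa4 were higher and Apoa1 was not called. Apob, the core protein of the chylomicron, stood at 12.9, 13.8, 15.1 and 24.5 CPM in WT and at 28.9, 36.3, 38.5 and 35.5 CPM in TG, without overlap (log2 fold change 1.07 ± 0.18, adjusted p = 0.0031). Mttp, the transfer protein that loads lipid onto it, rose by 0.59 ± 0.12 (adjusted p = 0.0057). Apoa4 was at 0.240, 1.53, 1.14 and 2.60 CPM in WT and at 4.75, 3.37, 19.5 and 10.9 CPM in TG. The spread within TG was wide, and the log2 fold change of 2.79 ± 0.77 came with an adjusted p of 0.0483. Apoa1, the main apolipoprotein of high-density lipoprotein, was at 1.04, 5.08, 3.08 and 10.8 CPM in WT and at 9.94, 21.6, 40.5 and 62.4 CPM in TG. TG replicate 1 overlapped WT replicate 4, and the log2 fold change of 2.74 ± 0.81 missed the threshold (adjusted p = 0.0663).

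Apoc3, an inhibitor of lipoprotein lipase, was removed by the filter on low counts, with 108 counts in TG and 12 in WT over the 4 libraries of each group. Scaled by library size, the ratio of TG to WT was 8.14 (exact 95% interval 4.48 to 16.2, which covers counting error only). The fits that keep such genes called it higher, with a log2 fold change of 2.99 ± 0.51 in edgeR without the filter (adjusted p = 6.42e-07) and of 3.06 ± 0.81 in DESeq2 (adjusted p = 0.00248). Apoa1, Apoc3 and Apoa4 lie in a row on chromosome 9, with 314 bases between Apoa1 and Apoc3 and 5059 between Apoc3 and Apoa4. Dgat2 and Mogat2 are neighbours as well, 36299 bases apart on chromosome 7.

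Creb3l3, a transcription factor of the endoplasmic reticulum that acts on triglyceride metabolism, showed the largest log2 fold change of the tested members. It is at chr10:80920141-80934708 (GRCm39), minus strand, and was at 0.240, 0, 0.134 and 0.446 CPM in WT and at 3.31, 4.64, 1.64 and 3.11 CPM in TG. Every TG library stood above every WT library, at a log2 fold change of 3.92 ± 0.53 (adjusted p = 0.000751), or 15.2-fold. None of the 4 WT libraries reached the filter's level. Maf, a transcription factor that rises during enterocyte maturation, was at 0.160 to 1.26 CPM in WT and 2.31 to 6.30 CPM in TG (log2 fold change 2.31 ± 0.46, adjusted p = 0.006). Krt20, a keratin of differentiated villus cells, was at 6.31, 3.69, 7.55 and 5.43 CPM in WT and at 6.06, 7.03, 16.6 and 16.9 CPM in TG. Only TG replicates 3 and 4 lay above the WT range, and the gene was not called (log2 fold change 1.02 ± 0.39, adjusted p = 0.109).

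Both bile acid genes were high in TG replicate 4. Fabp6, the ileal bile acid-binding protein, was at 0.559, 4.10, 1.54 and 7.06 CPM in WT and at 4.87, 14.1, 27.6 and 64.7 CPM in TG. TG replicate 1 lay inside the WT range, and the gene was not called in spite of a log2 fold change of 3.05 ± 1.02 (adjusted p = 0.093). DESeq2 called it (3.07 ± 0.96, adjusted p = 0.0133), limma voom did not (adjusted p = 0.142). Slc10a2, the ileal bile acid importer, was removed by the filter. It had 2 counts in WT, both in replicate 3, and 68 in TG, a ratio of 30.8 after scaling (exact 95% interval 8.19 to 259, counting error only). It was called higher by edgeR without the filter (log2 fold change 4.73 ± 0.76, adjusted p = 4.26e-08) and by DESeq2 (5.06 ± 1.27, adjusted p = 0.00117), and these fold changes rest on 2 WT counts. Within TG its level was 0.187, 0.984, 0.620 and 3.04 CPM.

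Calls were also counted by the number of reads behind a gene, as mean CPM without division by length. The 8 members at 100 CPM or more, 6 of them structural genes of the microvillus, held no gene called higher and both genes called lower, at a median log2 fold change of -0.18. Of 14 members between 10 and 100 CPM, 6 were higher (median 0.58), and of 24 members under 10 CPM, 16 were higher (median 1.67). Over all tested genes, 3.97%, 7.74% and 9.86% were called higher in these bands from high to low, 22.6%, 12.3% and 3.28% were called lower, and the medians were -0.16, -0.03 and 0.14. In the highest band the members' median was thus near that of all genes, and it lay above in the other bands. The filter acts mainly on the lowest band, as described above.

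**Figure D3:**
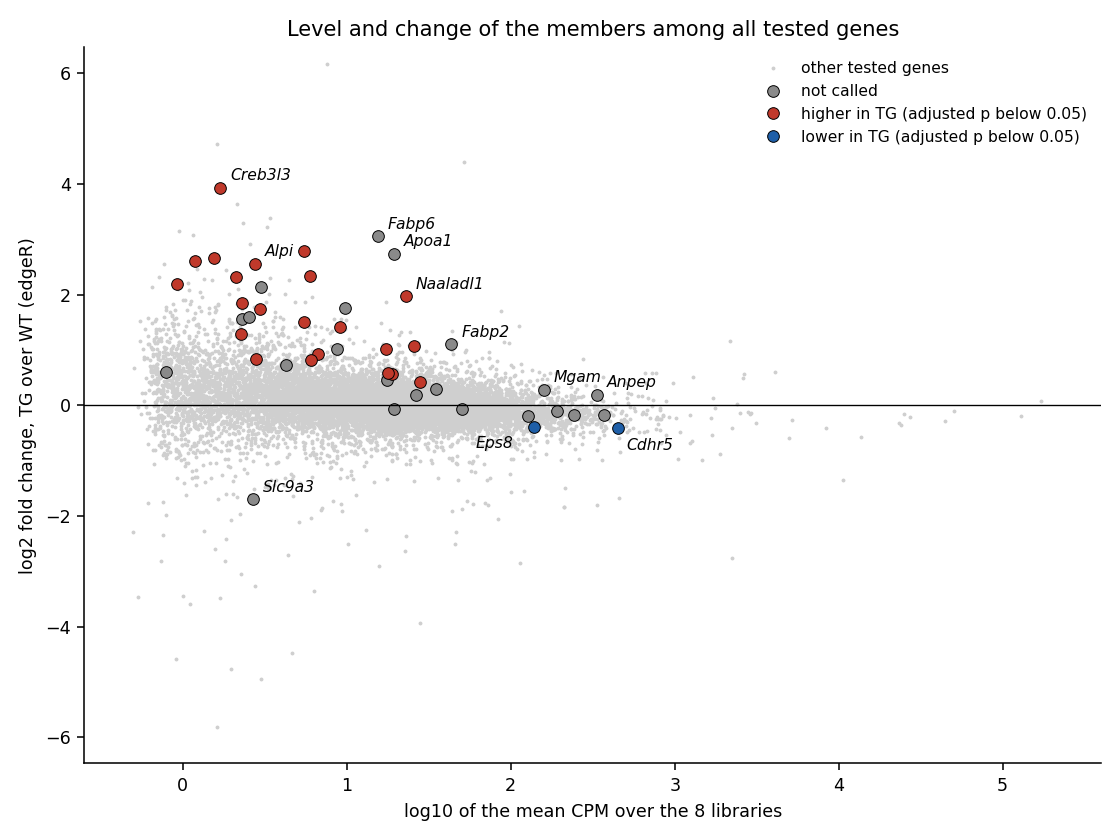
Log10 of the mean CPM over the 8 libraries (x axis) against the log2 fold change of TG over WT from edgeR (y axis), with small grey dots for other tested genes and large points for members, red where called higher, blue where called lower and grey where not called. The members at 100 CPM or more lie between -0.41 and 0.28, and the members above 1 have lower levels.

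The libraries of a group did not carry these genes evenly. TG replicate 4 held the highest TG value for 29 of the 48 genes and TG replicate 3 for 16, while replicates 1 and 2 led for 2 and 1. In WT, replicate 4 led for 25, replicate 1 for 11, replicate 3 for 9 and replicate 2 for 3. The libraries with Y-linked counts, replicates 3 and 4, thus held the highest TG value for 45 of 48 genes and the highest WT value for 34. TG replicates 3 and 4 were not alike. Replicate 3 led for Sis, Lct, Treh, Fabp1, Rbp2 and Apoa4 and replicate 4 for Fabp6, Slc10a2, Apoa1, Slc15a1, Fabp2, Naaladl1 and Maf. The ratio of Fabp6 to Fabp1 in CPM per kilobase was 1.32, 12.9, 4.17 and 22.1 in TG replicates 1 to 4.

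**Figure D4:**
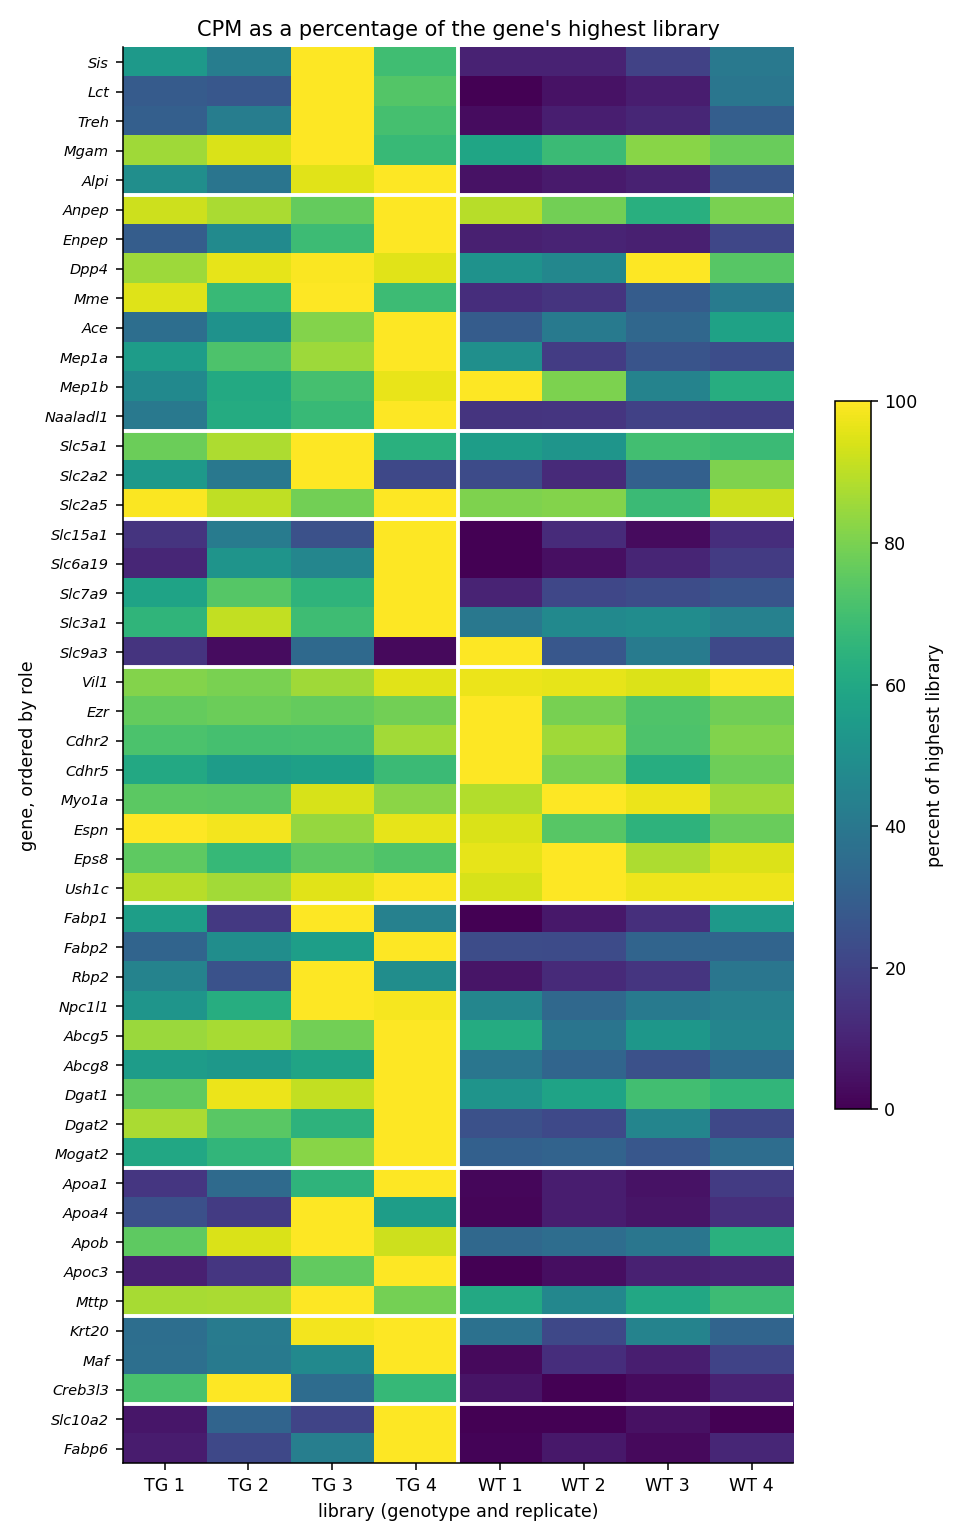
CPM of each of the 48 genes (rows, ordered by role and separated by white lines) in each library (columns), as a percentage of the gene's highest library. TG 3 and TG 4 hold most of the brightest cells, WT cells are mostly dark outside the microvillus structure block, and that block is bright in all 8 libraries.

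Because of that split, the comparison was repeated within each kind of library, 2 TG against 2 WT. In the libraries without Y-linked counts, 19 of 45 tested members were higher and 3 lower, beside 4.15% of all genes called higher and 5.29% called lower. In those with Y-linked counts, 10 of 47 were higher and 0 lower, beside 0.940% and 0.857% of all genes. Of the 22 members called higher in the full comparison, 21 had positive log2 fold changes in both subsets. Slc6a19 had no value in the libraries without Y-linked counts. The subsets are parts of the same 8 libraries, and only 2 of the 22 had overlapping groups. Positive values were thus largely fixed by the full comparison and are no support. The difference between the subsets was tested as an interaction in edgeR. It was called for 0 of 46 members and for 0.0251% of all genes, and 7 members had an unadjusted p under 0.05, as did 5.73% of all genes. Mep1b had the smallest of these, with an interaction of 1.38 (unadjusted p = 0.000491, adjusted p = 0.33). Its log2 fold change was 0.64 in the libraries with Y-linked counts and -0.74 in the others.

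Leaving out 1 library at a time ended some calls. Of the 22 genes called higher, 17 kept the call in all 8 such fits, 11 of them at the filter's level in every WT library and 6 below it in at least 1. Slc5a1, Slc6a19 and Apoa4 lost it in 6 fits each, Slc15a1 in 5 and Slc3a1 in 2, in each case with TG still higher. Cdhr5 lost its call in 6 fits, all but those without TG replicate 4 or WT replicate 3, and Eps8 in none. Enpep and Naaladl1, at that level in every WT library, were called higher in all alternative fits that gave a value. Alpi and Creb3l3 were too, but they reached the filter's level in 1 and 0 WT libraries and were tested because of their TG libraries, so their calls say little of stability. Other fits added calls and ended some. With a covariate for Y-linked counts, edgeR called 7 more members higher, namely Sis, Lct, Dpp4, Fabp2, Rbp2, Apoa1 and Krt20 (adjusted p from 0.00101 to 0.0349). DESeq2 added Sis, Fabp2, Rbp2, Apoa1, Krt20 and Fabp6 besides Apoc3 and Slc10a2, and ended none. Limma voom added Sis and Espn and lost Slc5a1, Slc15a1, Slc6a19 and Apoa4, which left 20 members higher. Slc5a1 and Apoa4 also lost the call under total counts only, and Apoa4 without the filter. Of the members added with the covariate or by DESeq2, none was called in more than 2 of the 8 fits that left out 1 library.

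Further genes of the same pathways were read from 4 lists. Among all tested genes 8.26% were higher and 9.65% lower, and the lists' counts stand beside that share. Of 20 further lipid absorption genes, 18 were tested, 2 were higher and 1 lower, at a median log2 fold change of 0.11. Plin2, the coat protein of lipid droplets, was at 8.14 to 14.0 CPM in WT and 15.7 to 26.6 CPM in TG (log2 fold change 0.77 ± 0.19, adjusted p = 0.0162), and Abca1, a basolateral cholesterol exporter, had a log2 fold change of 1.11 ± 0.36 (adjusted p = 0.0468). Rbp4, the plasma retinol carrier, was lower (-0.57 ± 0.14, adjusted p = 0.0127). Of 20 further brush border structure genes, 19 were tested, 3 were higher and 0 lower, at a median of 0.13. Baiap2l2, a membrane-bending protein of microvilli, stood at 51.7 to 72.5 CPM in WT and 93.7 to 107.9 CPM in TG, without overlap (log2 fold change 0.66 ± 0.11, adjusted p = 0.0019). Eps8l3, a relative of Eps8, had a log2 fold change of 0.27 ± 0.08 and Tmigd1, an adhesion protein of the brush border, of 1.96 ± 0.60.

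Of 30 further enzymes and transporters of the brush border, 23 were tested, 7 were higher and 2 lower, at a median of 0.23. Slc51a, a subunit of the basolateral bile acid exporter, was at 0.240 to 1.04 CPM in WT and 1.62 to 8.28 CPM in TG (log2 fold change 2.91 ± 0.54, adjusted p = 0.00528). Slc6a20a, a proline transporter, had a log2 fold change of 2.02 ± 0.39 (adjusted p = 0.00393). Slc11a2, the iron importer, was lower (-0.53 ± 0.10, adjusted p = 0.00394). Among 20 intestinal transcription factor genes, 18 were tested, 5 were higher and 2 lower, at a median of 0.13. The bile acid and xenobiotic receptor Nr1i2 had a log2 fold change of 0.60 ± 0.12 (adjusted p = 0.0055) and Ppargc1a, a coactivator of mitochondrial genes, one of 1.14 ± 0.25 (adjusted p = 0.00755).

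Bulk libraries do not separate more absorptive cells in the sort from more of these transcripts per Paneth cell, and these cannot be told apart here. The study describes its sorted Paneth cells as nearly free of other cells, a statement on its sorts in general, and the series title places the sorts after depletion of mature Paneth cells. Marker lists of other cell types were read beside the members. Of 10 Paneth cell markers, 0 were higher and 3 lower in TG, with a summed level of 371598 to 456066 CPM in TG and 352687 to 531876 CPM in WT. Of all tested genes at 100 CPM or more, where these markers but Mptx1 lay, 3.97% were higher and 22.6% lower. Over all tested genes of any level, the shares were 8.26% and 9.65%. Of 8 goblet cell markers none was called (8684 to 11988 CPM in TG, 10885 to 12656 CPM in WT), and of 7 stem cell markers 3 were higher and 1 lower (2324 to 3202 CPM in TG, 2077 to 2833 CPM in WT). No marker was called among 7 of proliferating cells (283 to 322 CPM in TG, 239 to 361 CPM in WT), 4 tested of 8 for enteroendocrine cells (4.81 to 16.8 CPM in TG, 7.66 to 45.1 CPM in WT) and 5 tested of 7 for tuft cells (22.2 to 69.2 CPM in TG, 24.9 to 51.2 CPM in WT). At an unadjusted p under 0.05 in edgeR, 1 goblet marker and 0 of proliferating, enteroendocrine and tuft cells differed, while DESeq2 called 0 markers of these 4 lists and limma called 1, 1, 1 and 0. The part of these lists in the members' differences was not tested.

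Markers from outside the epithelium were read as well. The immune list was at 60.5 to 195.2 CPM in TG and 281 to 470.5 CPM in WT. Of this, Cd74, an antigen presentation gene, gave 30.5 to 168 CPM in TG and 262 to 458 CPM in WT. Of the 8 genes of the list 2 were tested, Cd74 and Lyz2, and neither was called. Ptprc reached at most 0.620 CPM in any library and Cd68 at most 0.846 CPM. Cd3e, Cd79a, Itgae and Cd8a reached at most 0.348 CPM. Which cells the Cd74 counts came from was not tested. Cd74 itself did not overlap between groups and missed the threshold in edgeR (log2 fold change -1.84 ± 0.52, adjusted p = 0.0578), and it was called lower by DESeq2 and limma. The 7 stromal and endothelial markers summed to at most 0.520 CPM in any library and the 6 pancreatic acinar markers to at most 0.278 CPM, with 4 of the latter at 0 counts. Several members are also liver genes. Of 6 hepatocyte markers 2 were tested and none was called by edgeR (1 at an unadjusted p under 0.05), DESeq2 or limma. Alb, which encodes albumin, reached at most 1.29 CPM, and Serpina1a was at 0 counts in all libraries, while Cps1, which the intestine also expresses, was at 400.1 to 663 CPM.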

How the data were processed

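Paneth cells had been sorted by FACS, and libraries were prepared with a stranded mRNA kit. The authors deposited raw counts of each gene in the 8 libraries as 1 table. The submitters' processing notes name FastQC 0.12.0, STAR 2.7.0a, DESeq2 and the mm39 build, while the counting tool, its strand setting and the annotation were not given in the sources used here. Overlapping genes on opposite strands therefore may share counts, which concerns 11 members (Treh, Naaladl1, Slc3a1, Slc9a3, Vil1, Ezr, Espn, Abcg5, Abcg8, Dgat1 and Mttp) that overlap a protein-coding gene.

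Gene symbols, exon lengths and starts came from GENCODE version M39 on GRCm39, which matched 54749 of 55414 IDs. The 48 members, the lists and the tests were chosen with earlier results of these data known, so they are not independent of them. Counts were tested with edgeR 4.0.16 in R 4.3.3 (TMM factors, filter by group with a minimum count of 10, robust quasi-likelihood fit, Benjamini-Hochberg adjustment at 0.05, log2 fold changes as TG over WT), with all 8 libraries and the group as the only term. The test was run on simulated data, where it found 162 of 200 genes changed by a log2 fold change of 1 among 11929 genes, with 8 false calls. Alternatives were DESeq2 1.42.0, limma 3.58.1 (voom with quality weights), other scalings and filters, the replicate number and the presence of Y-linked counts as terms, subsets by Y-linked counts, and leaving out each library. Replicates were checked for duplicated libraries, and the chi-square per degree of freedom between them was at least 5.2.

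Every member was named with its call. In each of 9 roles, the called members with the smallest p and the largest log2 fold change and the member with the highest level per kilobase were given library by library, and of each further list the 3 called genes with the smallest p, except 1 gene and 1 planned promoter motif that are not reported here. Intervals cover counting error only, because the reads carried no molecular identifiers and may be copies of 1 molecule. Promoter windows were cut from the GRCm39 genome at the start of each gene's canonical transcript. A comparison of the members' proteins was not run.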

Additional observations from a re-analysis of the deposited data

Results flagged for a closer look

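Of 96 groups of 4 libraries, 1 for each member and genotype, 6 had 1 library far from the other 3. The rule flags about 1 in 20 groups, or 4.8, where values are independent and normally distributed. CPM values of genes from the same libraries need not be, so the 4.8 is only a guide. Enpep was at 3.42 CPM in WT replicate 4 and at 1.40 to 1.60 CPM in the other WT libraries. Cdhr2 stood at 260.2 CPM in TG replicate 4 and at 213 to 217 CPM in the other TG libraries. Abcg8 reached 34.8 CPM in TG replicate 4 against 18.5 to 20.3 CPM, and Maf 6.30 CPM in the same library against 2.31 to 2.99 CPM. Dgat2 was at 4.55 CPM in WT replicate 3 and at 2.16 to 2.48 CPM in the other WT libraries. Slc10a2 had 0.134 CPM in WT replicate 3, which is 2 counts, and 0 in the other WT libraries.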

How the results depend on the processing

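The count of 22 members higher in TG was 32 with the replicate block, 30 with DESeq2, 29 with the Y-linked covariate and 27 with no filter, 18 to 23 when 1 library was left out, 16 with a log2 fold change of at least 1 required and 10 with only the libraries with Y-linked counts. The other fits gave 19 to 24. Among all genes, 985 were higher and 1151 lower, and these counts were 1086 and 1330 with DESeq2, 984 and 1132 with the Y-linked covariate, 1318 and 1337 with no filter and 1168 and 1311 with limma voom. The 2 members lower became 0 with total counts only, with only the libraries with Y-linked counts and with a log2 fold change of at least 1 required, and 1 to 2 when 1 library was left out. Also among all genes, 113 were higher and 103 lower with only the libraries with Y-linked counts, 500 and 638 with only those without, and the leave-one-out fits 485 to 1045 higher and 553 to 1183 lower. Scaling by total counts alone gave 787 higher and 263 lower, so that 75.0% of calls were higher in place of 46.1%, while the median over all genes went from 0.01 to 0.12 and over the members from 1.02 to 1.13 (log2). No called member changed direction in any alternative.

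Of the further lipid absorption genes, 2 were higher, with 1 under total counts only, the Y-linked covariate, limma voom and only the libraries without Y-linked counts, 0 under the replicate block and only the libraries with Y-linked counts, and 1 to 2 when 1 library was left out. The brush border structure genes went from 3 to 1 in both Y-linked subsets and to between 1 and 3 in the leave-one-out fits. The enzyme and transporter genes went from 7 to 12 with no filter and to 4 with only the libraries with Y-linked counts, and the transcription factor genes from 5 to 0 with only the libraries with Y-linked counts, to 2 without them and to between 3 and 5 in the leave-one-out fits. The cause of these changes was not tested, and the subsets also held fewer libraries.

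Log2 fold changes near 0 changed sign in members without a call. Mep1b was at 0.0686 with total counts only, 0.64 with only the libraries with Y-linked counts and -0.27 to 0.13 when 1 library was left out. Ezr was at 0.0307, 0.0482 and -0.16 to 0.0057 in the same fits, Ush1c at 0.038 with total counts only and 0.0057 with only the libraries with Y-linked counts, and Cdhr2 at 0.0397 in the latter.

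Same-numbered libraries of the groups correlated at 0.0762, 0.0666, 0.286 and 0.231 in their deviations from the group means. Replicates 3 and 4 alone correlated best with their own number, while the presence of Y-linked counts was the same in same-numbered libraries. Whether the numbers pair the libraries therefore cannot be told from these values. With the replicate block, 3 members were lower, 11 members without a call gained one, Sis and Lct among them (adjusted p = 0.00343 and 0.0310), and 1039 genes were higher and 1164 lower among all. Members under about 1 CPM rest on few counts. The largest standard errors of tested members were those of Fabp6 (1.02), Fabp1 (0.92) and Lct (0.92), whose mean levels were higher than that.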
